A study of Homo sapiens with 24 samples.

Results

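The PFKFB genes PFKFB1, PFKFB2, PFKFB3 and PFKFB4 encode bifunctional enzymes that make and remove fructose 2,6-bisphosphate. They were chosen by symbol, and all 4 were found among the 23106 gene symbols of the count files. Gene counts were analyzed for A549 (lung), HCT-116 (colorectal), PC3 (prostate) and T47D (breast) cells, established cancer cell lines without a transgene. Cells were kept in 21% oxygen (normoxia) or in 0.5% oxygen for 16 h (hypoxia), with 3 libraries of polyadenylated RNA in each of the 8 groups. T47D cells grew in DMEM, A549 and PC3 cells in F12K and HCT-116 cells in McCoy's 5a medium, so cell line and medium cannot be told apart in comparisons between lines other than that of A549 with PC3 cells. Nothing in the labels says that replicates were separate cultures, so p values measure the spread between these libraries, which may be technical. These counts come from whole cultures, in which fewer cells of a kind and less RNA per cell cannot be told apart.

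Fructose 2,6-bisphosphate is the strongest allosteric activator of phosphofructokinase-1, the enzyme that commits glucose to glycolysis, and it inhibits the opposing fructose-1,6-bisphosphatase. Each PFKFB protein carries a kinase domain that makes this signal and a phosphatase domain that removes it, and the balance between both activities differs between family members. PFKFB3 has a kinase activity far above its phosphatase activity and is the inducible form of many tumors, PFKFB4 was first described in testis, PFKFB2 in heart and PFKFB1 in liver and muscle. Hypoxia-inducible factors (HIF), the transcription factors stabilized when oxygen is low, bind DNA at a core of ACGTG or GCGTG.

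PFKFB4 lies on the minus strand of chromosome 3 (GRCh37, 48555117 to 48599448) and PFKFB3 on the plus strand of chromosome 10 (6186897 to 6296607). PFKFB2 lies on the plus strand of chromosome 1 (207207711 to 207254369) and PFKFB1 on the minus strand of chromosome X (54959394 to 55024967). The representative transcript has 14 exons and 3499 bases for PFKFB4, 15 exons and 4482 bases for PFKFB3, 15 exons and 7073 bases for PFKFB2, and 14 exons and 2039 bases for PFKFB1. No stretch of 50 bases was shared between these 4 transcripts, so a fragment of that length names 1 member only. YOD1 lies within the PFKFB2 gene on the opposite strand, and a long noncoding gene lies within PFKFB3, also on the opposite strand. UCN2 overlaps the edge of the PFKFB4 gene on the same strand with most of its length outside. Exons of YOD1, UCN2 and this long noncoding gene shared 0 bases with these representative transcripts. This was fixed by position, since the transcripts do not reach the overlapping genes. Exons of other transcripts of the members were not compared, nor were the short RNA genes that also lie within PFKFB2 and PFKFB3. Whether the counting used strand is not given in the sources used here.

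The 250 bases before the annotated start are shown for PFKFB4 and for both annotated starts of PFKFB3, since these were the members with higher levels in hypoxia in every line. They are RefSeq sequences on GRCh38.p14, written 5′ to 3′ on the strand of the gene, and capitals mark ACGTG or GCGTG on either strand. The PFKFB4 window is chr3:48556804-48557053 on the minus strand, and the PFKFB3 windows are chr10:6144671-6144920 and chr10:6202682-6202931 on the plus strand.
PFKFB4: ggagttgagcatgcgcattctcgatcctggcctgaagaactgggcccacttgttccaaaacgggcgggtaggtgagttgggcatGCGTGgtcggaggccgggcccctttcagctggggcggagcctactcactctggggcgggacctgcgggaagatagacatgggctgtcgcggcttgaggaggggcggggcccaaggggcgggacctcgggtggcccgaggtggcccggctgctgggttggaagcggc
PFKFB3, upstream start: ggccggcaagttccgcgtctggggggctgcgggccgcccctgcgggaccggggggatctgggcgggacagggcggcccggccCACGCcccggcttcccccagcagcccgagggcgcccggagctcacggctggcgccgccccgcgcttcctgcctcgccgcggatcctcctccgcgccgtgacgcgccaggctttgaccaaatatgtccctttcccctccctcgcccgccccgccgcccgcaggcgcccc
PFKFB3, downstream start: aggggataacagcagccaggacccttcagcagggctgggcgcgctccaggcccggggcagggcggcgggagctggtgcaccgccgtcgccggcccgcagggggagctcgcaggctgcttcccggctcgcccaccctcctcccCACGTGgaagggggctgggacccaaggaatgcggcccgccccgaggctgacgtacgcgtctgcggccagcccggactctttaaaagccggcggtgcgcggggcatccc

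The PFKFB4 window held 1 match, a GCGTG whose first base lies 166 bases before the start. The window of the upstream PFKFB3 start also held 1 match, a GCGTG on the opposite strand that reads CACGC in the printed direction. The window of the downstream PFKFB3 start held CACGTG, in which ACGTG is read on both strands and which is therefore 2 overlapping matches. Both RefSeq windows of PFKFB1 held 0 matches. G and C made up 52.8% and 39.2% of these windows, against 68.0% for PFKFB4 and 79.2% and 74.4% for PFKFB3. Whether the number of matches follows this base content was not tested. Among all 35116 promoter windows of this length in the RefSeq table, 43.2% held ACGTG or GCGTG and 6.34% held CACGTG, so the presence of a match is common and is a description of these letters alone.

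Each library held between 22698584 and 62850747 counts, and the floor was set at 3 counts in a library. Of the hypoxia reference genes CA9, VEGFA, EGLN3, PDK1 and BNIP3, all 5 were called higher in hypoxia in A549, HCT-116 and T47D cells and 4 in PC3 cells, the exception being PDK1 (chosen for naming after its value was seen). In normoxia, ESR1, GATA3 and PGR marked T47D cells (166, 708 and 635 CPM) and CDX2 marked HCT-116 cells (11.8 CPM), whereas the other colorectal markers CDX1, VIL1 and LGR5 were at 0 counts in HCT-116. The lung markers NKX2-1 and SFTPB were at 0 to 4 counts in A549 libraries, and KLK3 was at 0 counts in PC3 libraries, so the tissue of these lines was not shown by these markers. Keratins KRT8 and KRT18 were at 328 CPM or more in every normoxic library, and EPCAM, another epithelial marker, averaged 4.01 CPM in A549 cells and 171.5 to 393 CPM in the other lines. PTPRC and PECAM1, of leukocytes and endothelium, stayed at or below 1.19 CPM, and COL1A1, of fibroblasts, averaged 13.3 to 38.8 CPM.

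PFKFB4 was higher in hypoxia in all 4 lines, and it had the largest fitted rise of the members in each. Levels are given as CPM, counts scaled to sequencing depth with TMM factors over all libraries. In HCT-116 cells, PFKFB4 was at 12.03, 12.9 and 18.1 CPM in the 3 normoxic libraries and at 187, 250 and 221 CPM in the 3 hypoxic libraries. In T47D cells, it was at 13.8, 15.3 and 14.7 CPM in normoxia and at 165, 176 and 158 CPM in hypoxia. In both lines, the lowest hypoxic library lay far above the highest normoxic library.

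In PC3 cells, PFKFB4 was at 37.4, 32.5 and 26.6 CPM in normoxia and at 102, 93.1 and 105 CPM in hypoxia. In A549 cells, it was at 5.88, 8.91 and 5.07 CPM in normoxia and at 34.5, 28.5 and 28.3 CPM in hypoxia. The states did not overlap in either line, but the hypoxic A549 level was about that of normoxic PC3 cells.

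A call needed a fold change over 1.2 and an adjusted p under 0.05 in edgeR's quasi-likelihood test, with Benjamini-Hochberg adjustment over all genes tested in a line. The log2 fold change of PFKFB4 in hypoxia was 3.82 in HCT-116 cells (SE, 0.23, adjusted p = 1.23e-06) and 3.43 in T47D cells (SE, 0.20, adjusted p = 9.01e-07). For A549 it was 2.19 (SE, 0.19, adjusted p = 1.34e-05), and for PC3 1.59 (SE, 0.12, adjusted p = 1.06e-04). As ratios of mean CPM, these were 15.3-fold, 11.4-fold, 4.60-fold and 3.10-fold. PFKFB4 ranked 14 among the 13614 genes tested in HCT-116 cells by log2 fold change, 43 of 14085 in T47D cells, 90 of 13897 in A549 and 134 of 13466 in PC3. PFKFB4 is one of the genes that the study lists as conserved HIF targets, a list drawn in part from these libraries, so its direction here is not independent evidence for that list.

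As background to these calls, 17.6% of all genes tested in A549 cells were called higher in hypoxia, 23.3% in HCT-116, 16.6% in PC3 and 6.55% in T47D. The shares called lower were 17.8%, 27%, 15.7% and 6.69% in the same order of lines. States that did not overlap were seen with hypoxia higher for 23.6%, 32.8%, 28.4% and 19% of genes, and with hypoxia lower for 24.3%, 27.6%, 22.2% and 13.3%. PFKFB3 and PFKFB4 were called higher without overlap in 4 of 4 lines, and the other members in none. In T47D cells, the replicate numbers were taken to pair the libraries, but the p values and calls given here come from a fit without pairing. Blocking on that number gave shares of 9.09% higher and 10.5% lower over all genes and changed no call of a member. For other named genes, single calls with this block were not examined, so their T47D calls are those without pairing.

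**Figure D1:**
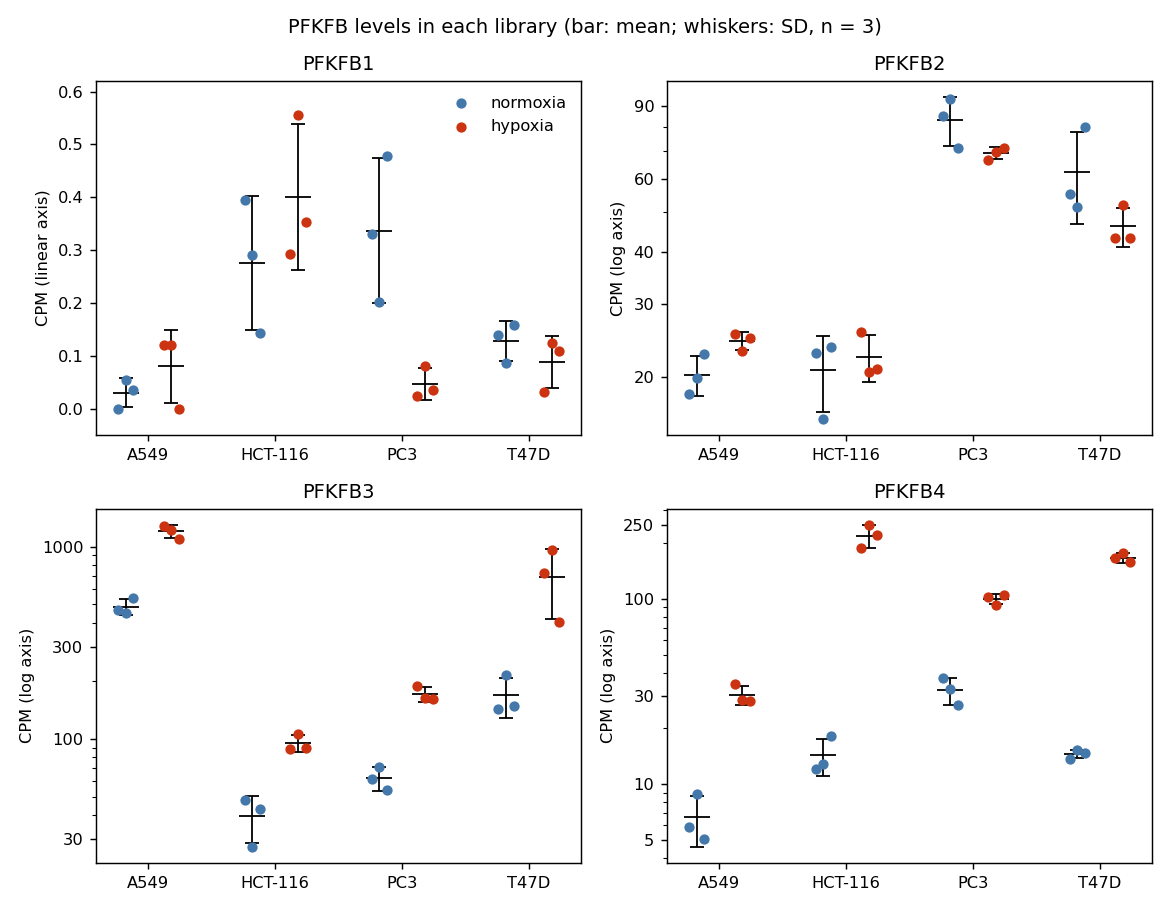
Levels of the 4 PFKFB genes in CPM in the 24 libraries (points), with group means (horizontal bars) and SD (whiskers, n = 3), on a linear axis for PFKFB1 and log axes for the others. PFKFB3 and PFKFB4 separate hypoxia from normoxia in all 4 lines, PFKFB2 differs mainly between lines, and PFKFB1 stays under 0.6 CPM.

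The size of the PFKFB4 response differed between lines. The interaction of line and hypoxia in one fit of all 24 libraries gave an adjusted p of 4.58e-06 for PFKFB4, which ranked 19 of 16089 genes tested by this p, and 18.3% of all genes passed. Of the 6 pairs of lines, 4 differed in the PFKFB4 response. The log2 response in HCT-116 cells was above that in PC3 cells by 2.30 (SE, 0.26, adjusted p = 9.31e-06), and the A549 minus HCT-116 difference was -1.73 (SE, 0.26, adjusted p = 2.81e-04). The PC3 minus T47D difference was -1.88 (SE, 0.26, adjusted p = 1.08e-04) and the A549 minus T47D difference was -1.31 (SE, 0.26, adjusted p = 0.00603). Across all genes, 14.9%, 16.7%, 2.25% and 2.11% passed in these 4 pairs.

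The 2 remaining pairs did not pass. HCT-116 and T47D cells differed by 0.42 (95% interval, -0.11 to 0.95, adjusted p = 0.298), and A549 and PC3 cells by 0.57 (95% interval, 0.03 to 1.10, adjusted p = 0.460), pairs in which 9.07% and 0.758% of all genes passed. These intervals do not show that the responses were equal. The lines with the larger response, HCT-116 and T47D, thus stood apart from A549 and PC3 in each of the 4 cross comparisons. Over all genes tested, a fitted rise over 2-fold was seen for 1376 in HCT-116, 886 in T47D, 672 in A549 and 441 in PC3 cells. By this count, the same split of lines was seen beyond PFKFB4.

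Ordered by mean level, PFKFB4 was highest in hypoxic HCT-116 cells (219 ± 31.5 CPM, SD, n = 3), followed by hypoxic T47D cells (166 ± 9.41) and hypoxic PC3 cells (99.8 ± 5.97). Then came normoxic PC3 cells (32.2 ± 5.43), hypoxic A549 cells (30.4 ± 3.54), normoxic T47D cells (14.6 ± 0.779), normoxic HCT-116 cells (14.3 ± 3.29) and normoxic A549 cells (6.62 ± 2.02). Neighbors that did not pass the test were hypoxic HCT-116 and hypoxic T47D cells (adjusted p = 0.0533), normoxic PC3 and hypoxic A549 cells (adjusted p = 0.728), and normoxic T47D and normoxic HCT-116 cells (adjusted p = 0.925, edgeR). Each of the other steps in this order passed, as did 60% of all genes in the tests of such neighbors, summed over the 18 pairs of groups that occur in the orders of the 4 members. The test across lines gave PFKFB4 an adjusted p of 5.05e-10 in normoxia and 6.16e-12 in hypoxia.

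PFKFB3 was higher in hypoxia in all 4 lines, and it had the highest level per transcript length of the 4 genes in 7 of the 8 groups. In A549 cells, PFKFB3 was at 468, 453 and 542 CPM in normoxia and at 1288, 1222 and 1097 CPM in hypoxia. In T47D cells, it was at 143, 214 and 148 CPM in normoxia and at 729, 960 and 403 CPM in hypoxia. Both lines showed no overlap of the states, and hypoxic replicate 3 of T47D cells stood well below the other hypoxic libraries of that line.

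In PC3 cells, PFKFB3 was at 61.5, 71.6 and 53.9 CPM in normoxia and at 188, 164 and 160 CPM in hypoxia. In HCT-116 cells, it was at 47.9, 27.4 and 42.9 CPM in normoxia and at 88.2, 105 and 89.98 CPM in hypoxia. The states again did not overlap, and hypoxic HCT-116 cells had less PFKFB3 than normoxic A549 or T47D cells.

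By edgeR, PFKFB3 rose in A549 cells with a log2 fold change of 1.30 (SE, 0.12, adjusted p = 1.62e-05), in HCT-116 cells with 1.14 (SE, 0.22, adjusted p = 9.95e-04) and in PC3 cells with 1.41 (SE, 0.11, adjusted p = 1.34e-04). For T47D, the value was 1.96 (SE, 0.31, adjusted p = 0.00244). Without normoxic replicate 1, the T47D value was 1.87 but no longer passed (adjusted p = 0.0593). The ratios of mean CPM were 2.47-fold for A549, 2.40-fold for HCT-116, 2.74-fold for PC3 and 4.14-fold for T47D.

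A difference between lines in the PFKFB3 response was not shown (interaction adjusted p = 0.205), and 0 of 6 pairs passed. The widest gap, HCT-116 minus T47D, was -0.79 (95% interval, -1.47 to -0.11, adjusted p = 0.123). Without hypoxic replicate 3 of T47D cells, the library with the low value, the interaction passed (adjusted p = 0.0212).

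What distinguished the lines for PFKFB3 was its level. In normoxia, it ranged from 39.4 ± 10.7 CPM in HCT-116 cells through 62.3 ± 8.91 in PC3 and 168 ± 39.9 in T47D to 487 ± 47.7 in A549 cells (SD, n = 3), and all 6 pairs of lines passed the test. The test across lines gave an adjusted p of 8.12e-13 in normoxia and 8.38e-13 in hypoxia, where the levels were 94.5 ± 9.47 in HCT-116, 171 ± 15.2 in PC3, 697 ± 280 in T47D and 1202 ± 96.6 CPM in A549 cells. Differences between lines were common, since 93.8% of all genes passed across lines in normoxia and 92.4% in hypoxia, and 66% and 64.6% passed in the tests of single pairs of lines. In the order of all 8 groups, the steps from hypoxic T47D to normoxic A549 cells (adjusted p = 0.0514) and from hypoxic PC3 to normoxic T47D cells (adjusted p = 0.952) did not pass, and the other neighbors passed.

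**Figure D2:**
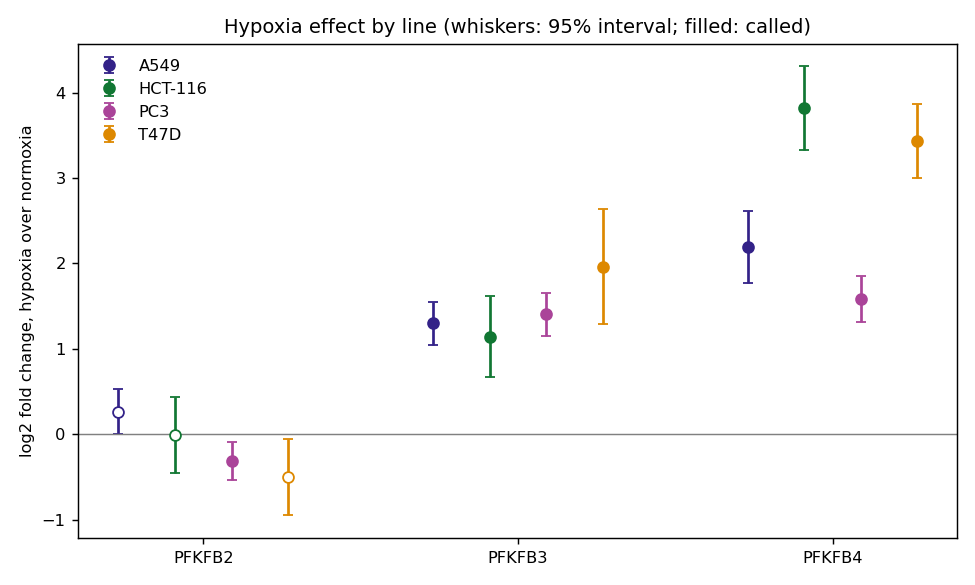
Log2 fold change of PFKFB2, PFKFB3 and PFKFB4 in hypoxia over normoxia in each line, from edgeR (points; whiskers, 95% interval; filled points passed the adjusted p and fold thresholds). The PFKFB3 values lie between 1.14 and 1.96, whereas the PFKFB4 values spread from 1.59 to 3.82 and those of PFKFB2 lie between -0.51 and 0.26.

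PFKFB2 showed small differences between oxygen states that were not of 1 direction. In A549 cells, it was at 18.2, 19.9 and 22.7 CPM in normoxia and at 25.3, 23.1 and 24.9 CPM in hypoxia, and in HCT-116 cells at 22.9, 15.8 and 23.6 CPM in normoxia and at 25.6, 20.5 and 20.9 CPM in hypoxia. In PC3 cells, it was at 85.2, 93.5 and 71.2 CPM in normoxia and at 66.7, 69.8 and 71.4 CPM in hypoxia, and in T47D cells at 55.2, 51.5 and 80.2 CPM in normoxia and at 43.3, 52.0 and 43.2 CPM in hypoxia. The states were separate in A549 cells and overlapped in the other 3 lines.

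PFKFB2 was called lower in PC3 cells (log2 fold change, -0.31, SE, 0.10, adjusted p = 0.0370), where 15.7% of all genes were called lower. This call was lost when any library other than normoxic replicate 3 was left out (adjusted p between 0.0827 and 0.117) and in the fit of all 24 libraries (adjusted p = 0.347). Elsewhere the log2 fold change did not pass, with 0.26 in A549 (SE, 0.12, adjusted p = 0.106), -0.01 in HCT-116 (SE, 0.21, adjusted p = 0.971) and -0.51 in T47D cells (SE, 0.21, adjusted p = 0.118). Without normoxic replicate 3, the A549 value was 0.35 and passed (adjusted p = 0.0412). The interaction with line did not pass (adjusted p = 0.0989, edgeR).

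The level of PFKFB2 set apart a pair of lines from the others. PC3 and T47D cells had 46.2 to 83.3 CPM on average in either state, and A549 and HCT-116 cells 20.3 to 24.4 CPM. In the order of the 8 groups, the step from hypoxic T47D to hypoxic A549 cells was the one that passed (log2 difference, 0.92, SE, 0.17, adjusted p = 4.52e-05), and no other step passed. Compared in the same state, PC3 cells were above T47D cells by 0.42 in normoxia (SE, 0.17, adjusted p = 0.0320, edgeR). In hypoxia, that log2 difference was 0.59 (SE, 0.17, adjusted p = 0.00386). Over the pairs of lines, 66% and 64.6% of all genes passed in these states. The test across lines gave PFKFB2 an adjusted p of 1.02e-11 in normoxia and 2.67e-09 in hypoxia. By normoxic mean, the lines had the same order for PFKFB2 as for PFKFB4 (PC3, T47D, HCT-116 and A549), although HCT-116 and A549 cells did not pass the test for PFKFB2 (adjusted p = 0.873), nor T47D and HCT-116 cells for PFKFB4. PFKFB3 had another order, with A549 cells highest.

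PFKFB1 was near the detection limit in all lines. Its counts were 0 to 7 in A549 libraries, 8 to 29 in HCT-116, 1 to 16 in PC3 and 2 to 10 in T47D libraries, and its highest level was 0.555 CPM. In PC3 cells, it had 8, 11 and 16 counts in normoxia and 1, 4 and 2 counts in hypoxia, which did not overlap. In HCT-116 cells, it had 22, 13 and 9 counts in normoxia and 17, 29 and 8 counts in hypoxia, which overlapped.

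PFKFB1 passed the filter on low counts in 1 line, HCT-116, where its log2 fold change was 0.41 (SE, 0.60, adjusted p = 0.584). Without the filter, the PC3 value was -2.80 (SE, 0.83, adjusted p = 0.0221, edgeR), and DESeq2 gave -2.89 (adjusted p = 0.0115). That value did not pass when hypoxic replicate 1, hypoxic replicate 3 or normoxic replicate 3 was left out (adjusted p between 0.0588 and 0.0658). The HCT-116 and PC3 responses differed by 3.30 in the fit of all 24 libraries (SE, 1.08, adjusted p = 0.0411), a value that rests on 1 to 4 counts in each hypoxic PC3 library. The overall interaction of PFKFB1 did not pass (adjusted p = 0.0616). Its levels differed across lines in normoxia (adjusted p = 0.00470) and in hypoxia (adjusted p = 0.00247), but not when replicate 1 of every group (normoxia, adjusted p = 0.102) or replicate 2 of every group (hypoxia, adjusted p = 0.0706) was left out, and no step in the order of its 8 groups passed.

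Levels of different members were compared per kilobase of representative transcript, as a share of the sum of the 4 members in each library. In A549 cells, PFKFB3 made up 95.8% ± 0.722 of this sum in normoxia and 95.6% ± 0.273 in hypoxia (SD, n = 3), so the makeup stayed with 1 gene although the sum was 2.47-fold higher. In HCT-116 cells, PFKFB3 made up 54.6% ± 5.60 in normoxia and 24.3% ± 1.21 in hypoxia, and PFKFB4 26.1% ± 5.73 and 71.8% ± 2.01. HCT-116 in hypoxia was the group in which PFKFB4 exceeded PFKFB3 per length, in 3 of 3 libraries.

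In T47D cells, the PFKFB3 share was 73.7% ± 6.25 in normoxia and 72.6% ± 7.86 in hypoxia, while that of PFKFB4 was 8.33% ± 0.874 and 24.1% ± 6.96 and that of PFKFB2 was 17.8% ± 5.53 and 3.29% ± 0.904. In PC3 cells, the 3 genes were closest to each other in normoxia, with 39.7% ± 2.03 for PFKFB3, 33.6% ± 0.685 for PFKFB2 and 26.2% ± 2.67 for PFKFB4. In hypoxic PC3 cells, these shares were 49.8% ± 2.46, 12.8% ± 0.991 and 37.3% ± 1.81. The summed level per kilobase was 5.46-fold higher in hypoxia in HCT-116 cells, 4.14-fold in T47D cells and 2.18-fold in PC3 cells. PFKFB1 stayed below 1% on average in every group. A longer annotation, the union of all exons, lowered the hypoxic PFKFB4 share in HCT-116 cells to 66.7%, and these lengths are not the gene models used for counting.

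**Figure D3:**
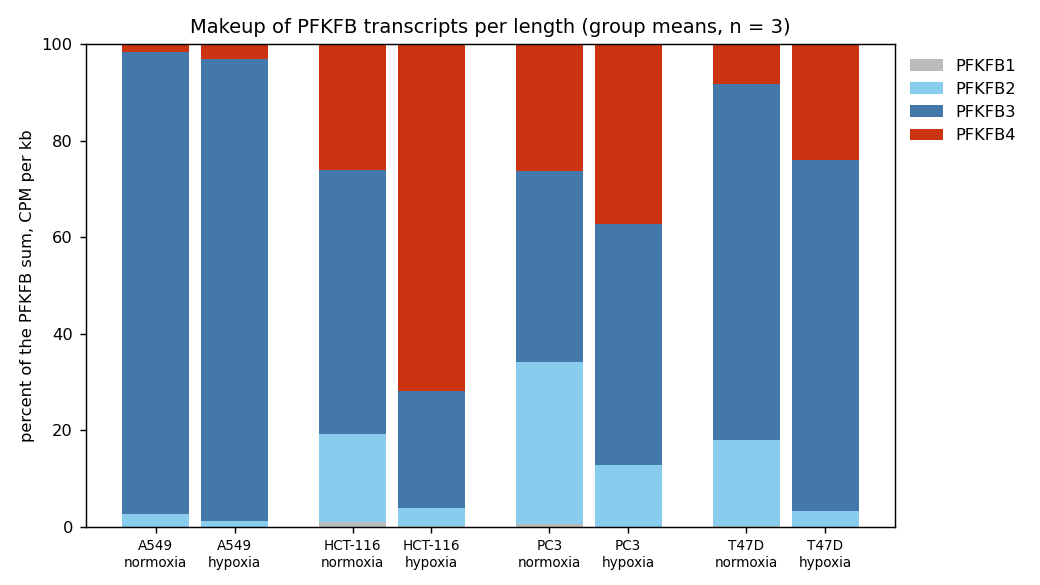
Share of each PFKFB gene in the sum of the 4 genes, in percent of CPM per kilobase of representative transcript, as group means (n = 3). PFKFB3 fills most of the A549 and T47D bars, and the PFKFB4 part of the HCT-116 bar goes from 26.1% in normoxia to 71.8% in hypoxia.

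The log2 ratio of PFKFB4 to PFKFB3 per length separated the states in 3 lines. It was -1.08 ± 0.48 in normoxic and 1.57 ± 0.11 in hypoxic HCT-116 cells, -3.15 ± 0.26 and -1.62 ± 0.56 in T47D cells, and -5.88 ± 0.54 and -4.95 ± 0.10 in A549 cells (SD, n = 3). In PC3 cells, it was -0.60 ± 0.22 in normoxia and -0.42 ± 0.14 in hypoxia, and the libraries overlapped. The hypoxia minus normoxia difference in this ratio was thus 2.65 in HCT-116, 1.52 in T47D, 0.93 in A549 and 0.18 in PC3 cells.

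**Figure D4:**
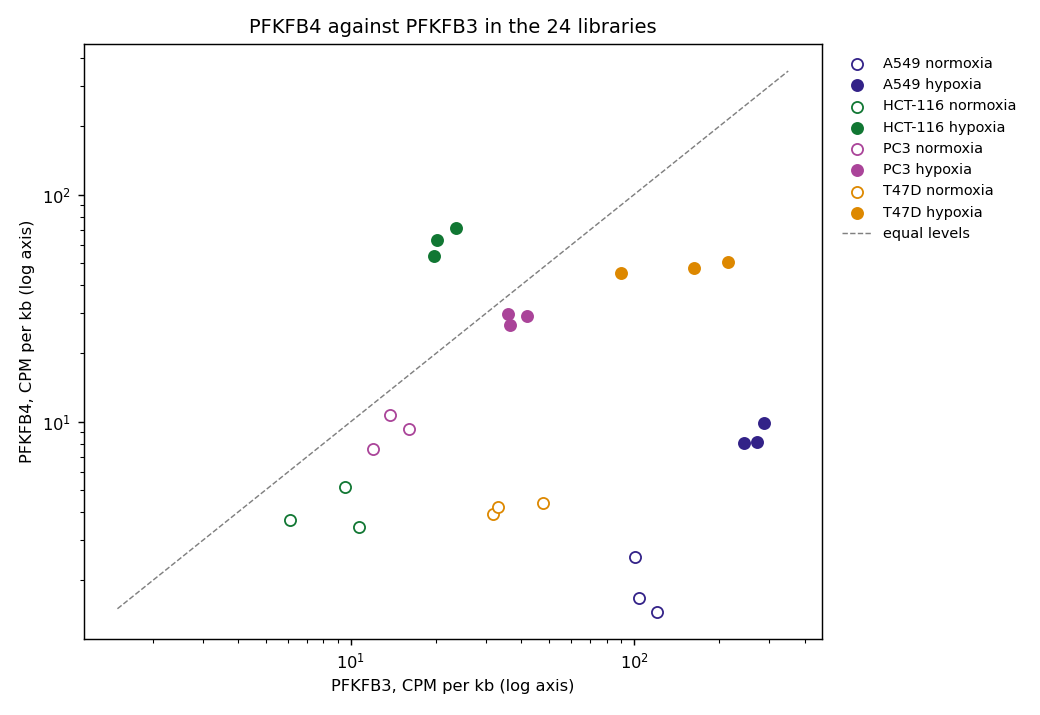
PFKFB4 against PFKFB3 in CPM per kilobase on log axes, for the 24 libraries (open, normoxia; filled, hypoxia; dashed line, equal levels). Each line keeps its own region, the hypoxic libraries lie up and to the right of the normoxic ones, and the 3 hypoxic HCT-116 libraries lie above the line of equal levels.

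Across the 24 libraries, log2 levels of PFKFB3 and PFKFB4 were nearly unrelated (Pearson's r = 0.034), and after subtraction of each line's mean they moved together (r = 0.900). By that r within lines, PFKFB3 ranked 323 among 16088 other genes for PFKFB4, and PFKFB4 ranked 97 for PFKFB3, so many genes were closer to each. These libraries share 4 lines and 2 oxygen states, so the values are descriptions. By the same measure over 16088 other genes, the closest to PFKFB4 were FOXO3 (r = 0.945), ZNF395 (r = 0.941) and PDK1 (r = 0.923), and within lines PPP1R3G (r = 0.987), ANGPTL4 (r = 0.985) and BNIP3 (r = 0.981). For PFKFB3, they were TNFAIP1 (r = 0.974), KDM5A (r = 0.963) and LPP (r = 0.962), and within lines DTX4 (r = 0.968), SLCO4A1 (r = 0.964) and ZMYND8 (r = 0.963). None of these genes was shared between the lists of both members.

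For PFKFB2, the closest genes were CDH7 (r = 0.961), S100A9 (r = 0.960) and PAX9 (r = 0.960), and within lines EMB (r = 0.771), ANKRD40 (r = 0.751) and MTMR12 (r = 0.721). PFKFB1 was closest to LINC00624 (r = 0.823), TMEM249 (r = 0.750) and DENND6A (r = 0.746), and within lines to FAAH (r = 0.745), TRAM1L1 (r = 0.721) and ZNF549 (r = 0.711). With PFKFB1 at so few counts, its correlations are no finding.

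Genes that act next to the PFKFB enzymes were counted in the same fits. Phosphofructokinase-1, the target of fructose 2,6-bisphosphate, has 3 subunit genes. PFKL, the liver subunit, rose in all 4 lines, by a log2 fold change of 1.35 in A549 (SE, 0.11), 2.02 in HCT-116 (SE, 0.21), 0.55 in PC3 (SE, 0.10) and 1.42 in T47D cells (SE, 0.22). PFKP, the platelet subunit, also rose in all 4 lines, by 0.91 (SE, 0.10), 2.28 (SE, 0.24), 0.66 (SE, 0.11) and 2.61 (SE, 0.23) in the same order. PFKM, the muscle subunit, was called lower in A549 cells (-0.33, SE, 0.11) and higher in HCT-116 cells (0.54, SE, 0.20) and was not called in PC3 (-0.26, SE, 0.11) or T47D cells (0.36, SE, 0.20). The A549 call of PFKM was lost without hypoxic replicate 2, hypoxic replicate 3, normoxic replicate 1 or normoxic replicate 2 (adjusted p between 0.0813 and 0.143). The HCT-116 call of PFKM was lost without any of the 3 hypoxic libraries or normoxic replicate 2 (adjusted p between 0.0522 and 0.0996) and with library totals (adjusted p = 0.0686), and in PC3 cells PFKM was called lower without normoxic replicate 3 (adjusted p = 0.0115). The calls of PFKL and PFKP were kept with any library of the line left out.

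TIGAR, a phosphatase that also removes fructose 2,6-bisphosphate and is listed under its older symbol C12orf5, was lower in HCT-116 (-1.05, SE, 0.23) and T47D cells (-0.84, SE, 0.26) and not called in A549 (-0.23, SE, 0.10) or PC3 cells (-0.16, SE, 0.10). The T47D call of TIGAR was lost without replicate 1 or replicate 2 of either state (adjusted p between 0.127 and 0.198), and with library totals it was called lower in A549 cells (-0.34, adjusted p = 0.0165). FBP1, the fructose-1,6-bisphosphatase of liver, was tested in PC3 (-0.01, SE, 0.12) and T47D cells (0.23, SE, 0.32) and called in neither, and FBP2 did not pass the filter on low counts. Of these 6 genes, the numbers called higher and lower were 2 and 1 of 4 tested in A549, 3 and 1 of 4 in HCT-116, 2 and 0 of 5 in PC3, and 2 and 1 of 5 in T47D cells. Over all genes, the shares called higher were 17.6%, 23.3%, 16.6% and 6.55% in this order of lines, and those called lower 17.8%, 27%, 15.7% and 6.69%. The median over the tested genes was 0.34, 1.28, -0.01 and 0.36 on the log2 scale, beside -0.01, -0.03, -0.01 and -0.01 for all genes tested.

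The hexokinases, glucose-6-phosphate isomerase and aldolases, which supply and use the same hexose phosphates, were called higher in 5 of 5 tested genes in A549, HCT-116 and T47D cells and in 5 of 6 in PC3 cells, and lower in none. Over all genes, 17.6% were called higher in A549, 23.3% in HCT-116, 16.6% in PC3 and 6.55% in T47D cells. The median over the tested genes was 1.94 for A549, 3.44 for HCT-116, 0.79 for PC3 and 2.49 for T47D on the log2 scale. For all genes tested, it was -0.01, -0.03, -0.01 and -0.01. ALDOC, an aldolase, rose by 4.99 (SE, 0.24), 4.43 (SE, 0.40), 1.21 (SE, 0.12) and 4.03 (SE, 0.26) in A549, HCT-116, PC3 and T47D cells. HK2, a hexokinase, rose by 4.60 (SE, 0.23), 3.61 (SE, 0.35), 0.88 (SE, 0.14) and 3.03 (SE, 0.22), and GPI, the isomerase, by 1.94 (SE, 0.12), 3.44 (SE, 0.29), 0.69 (SE, 0.12) and 2.49 (SE, 0.24) in the same order. HK2 and GPI are in the study's list of conserved HIF targets as well, and PC3 cells had the smallest fitted rise for these 3 genes as for PFKFB4.

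**Figure D5:**
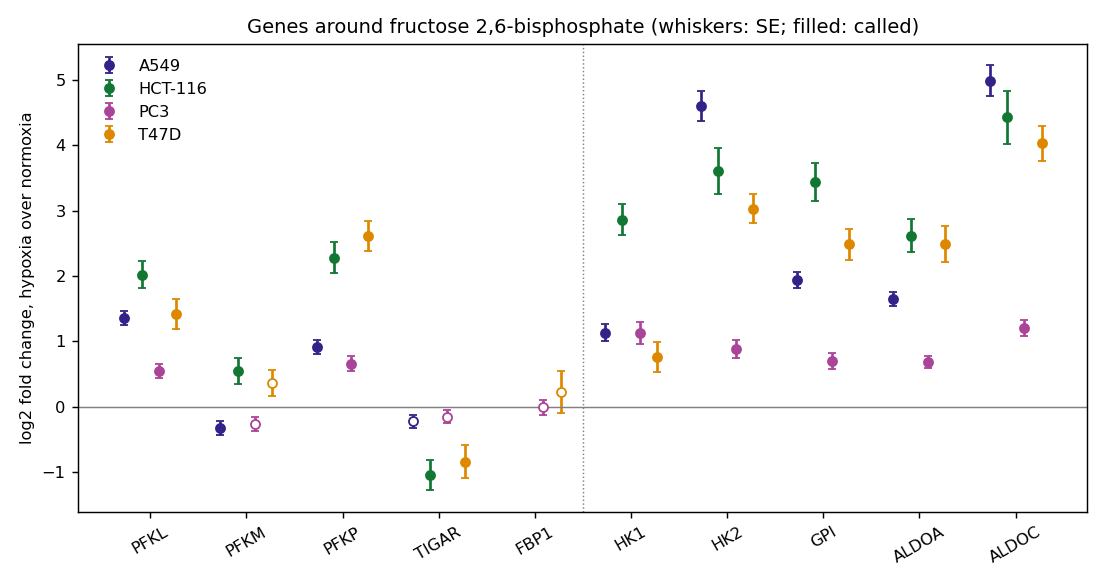
Log2 fold change in hypoxia over normoxia of genes around fructose 2,6-bisphosphate in the 4 lines, from edgeR (points; whiskers, SE; filled points passed the thresholds; no point, not tested). PFKL and PFKP lie above 0 in all 4 lines, TIGAR lies below 0, and the hexokinase, isomerase and aldolase genes right of the dotted line lie between 0.68 and 4.99.

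Genes of enzymes that act on PFKFB proteins (AMPK, AKT and PKA subunits, MAPKAPK2, RPS6KA1, PDPK1, the ubiquitin ligase adaptors FZR1 and BTRC and the methyltransferase PRMT1), with the PFKFB4 substrate NCOA3, had median log2 fold changes of 0.28 in A549, 0.59 in HCT-116, 0.29 in PC3 and 0.19 in T47D cells. Of 14 tested, 4 were called higher in A549, 8 in HCT-116 and 9 in PC3 cells, and 0, 2 and 1 lower. Over all genes, 17.6%, 23.3% and 16.6% were called higher in these lines and 17.8%, 27% and 15.7% lower. In T47D cells, 0 of 13 tested were called in either direction by edgeR, beside 6.55% of all genes higher and 6.69% lower. In the fit of all 24 libraries, 3 were called higher in that line. These counts depended on single libraries, with 7 called higher in A549 cells without normoxic replicate 3 and 2 without hypoxic replicate 2 or normoxic replicate 1. In HCT-116 cells, 5 were called higher without hypoxic replicate 3. In PC3 cells, 1 was called higher without hypoxic replicate 1 or normoxic replicate 1, 2 without hypoxic replicate 2 and 4 without hypoxic replicate 3. MAPKAPK2, a kinase that phosphorylates PFKFB3, was higher in A549 (0.81, SE, 0.11), HCT-116 (0.60, SE, 0.18) and PC3 cells (0.30, SE, 0.09). RPS6KA1 was higher by 0.30 (SE, 0.10), 0.62 (SE, 0.18) and 0.38 (SE, 0.10) and AKT1, which phosphorylates PFKFB2, by 0.42 (SE, 0.11), 0.58 (SE, 0.19) and 0.28 (SE, 0.09) in the same lines. In PC3 cells, the calls of AKT1 and MAPKAPK2 were each lost without any library but normoxic replicate 2 (without normoxic replicate 3 through the size of the change, with adjusted p of 0.0491 and 0.0313) and with library totals, and that of RPS6KA1 without hypoxic replicate 1, hypoxic replicate 2 or normoxic replicate 1. In A549 cells, those of AKT1 and RPS6KA1 were lost without hypoxic replicate 2 or normoxic replicate 1, and that of RPS6KA1 also without normoxic replicate 2 and with library totals. In HCT-116 cells, both were lost without hypoxic replicate 3, and that of AKT1 also without normoxic replicate 3.

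Among genes whose annotated bodies lie within 100 kb of a member, none near PFKFB1 or PFKFB3 was called in 2 or more lines. That absence says little, since 1 gene was tested near PFKFB3 in each line, and near PFKFB1 2 in A549 and 1 in each other line. Near PFKFB2, 4, 2, 2 and 3 genes were tested in A549, HCT-116, PC3 and T47D cells. Of these, 1 was called higher in each line, and 0, 1, 1 and 1 were called lower. Over all genes, 17.6%, 23.3%, 16.6% and 6.55% were called higher in these lines and 17.8%, 27%, 15.7% and 6.69% lower. C1orf116, whose 5′ end lies 1610 bases from the outer edge of the PFKFB2 gene on the opposite strand, was called higher in all 4 lines. Its log2 fold changes were 1.09 in A549, 2.84 in HCT-116, 0.51 in PC3 and 1.25 in T47D cells. The representative PFKFB2 transcript starts farther downstream, at 207226620, beside the 5′ end of YOD1 at 207226325 on the opposite strand. YOD1, a deubiquitinase gene within PFKFB2, was lower in HCT-116 (-1.06), PC3 (-0.45) and T47D cells (-0.62) and not called in A549 cells (0.06). The T47D calls of C1orf116 and YOD1 were lost without replicate 1 or replicate 2 of either state. PFKFB2 itself was called in 1 of these lines.

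Near PFKFB4, 11 genes were tested in A549, HCT-116 and PC3 cells, of which 2, 4 and 3 were called lower and 0, 2 and 1 higher. Over all genes, 17.8%, 27% and 15.7% were called lower in these lines, and 17.6%, 23.3% and 16.6% higher. In T47D cells, 0 of 10 tested were called, beside 6.55% of all genes higher and 6.69% lower. Of the genes near PFKFB4, TMA7 and CCDC51 were called lower in A549, HCT-116 and PC3 cells, the opposite direction to PFKFB4. The log2 fold changes were -0.60, -1.42 and -0.53 for TMA7 and -0.67, -0.64 and -0.38 for CCDC51. The TMA7 call in PC3 cells was lost without hypoxic replicate 2, and in T47D cells TMA7 was called lower without hypoxic replicate 3 (-1.05, adjusted p = 0.00498) and with library totals (-0.89, adjusted p = 0.0243). The CCDC51 call was lost in HCT-116 cells without hypoxic replicate 2, hypoxic replicate 3 or normoxic replicate 3, and in PC3 cells without hypoxic replicate 1, hypoxic replicate 3 or normoxic replicate 1. UCN2, which overlaps the edge of the PFKFB4 gene, was called higher in HCT-116 (2.03, SE, 0.58, adjusted p = 0.0111) and PC3 cells (1.82, SE, 0.50, adjusted p = 0.0224, edgeR), at levels under 2 CPM, and was not called in A549 cells (-0.29). The HCT-116 call was lost without hypoxic replicate 3 (adjusted p = 0.0572), and the PC3 call without any library but hypoxic replicate 1 or normoxic replicate 3 (adjusted p between 0.0551 and 0.0750). Whether fragments of PFKFB4 add to the UCN2 counts was not tested.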

How the data were processed

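Polyadenylated RNA of 4 cell lines in 2 oxygen states was sequenced from a directional kit (NEBNext Ultra II). Per the labels and the study's methods, the authors trimmed reads with Trim Galore 0.3.3, aligned them to GRCh37 (hg19) with HISAT2 2.05, removed fragments without a unique position with Picard 2.0.1 and counted the rest on UCSC genes with HTSeq 0.5.4p3 (intersection-strict). The deposited values are these raw counts by gene symbol. Excluding fragments without a unique position can lower genes with close copies.

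Computed here were edgeR 4.0.16 fits in R 4.3.3 (filterByExpr, TMM, glmQLFit and glmQLFTest, Benjamini-Hochberg over all genes tested), 1 fit per line of 3 hypoxic against 3 normoxic libraries, and 1 fit of all 24 libraries for the interaction of line and hypoxia, for differences between lines and for neighbors in the order of levels. Calls in the fits of single lines needed a fold change over 1.2 and an adjusted p under 0.05, the other tests the latter alone. CPM used TMM factors over all 24 libraries, and log2 CPM a prior count of 2. Fold changes of a single line use that line's own factors and can differ slightly from ratios of CPM. Floors of 3 counts cover counting error only, since fragments without molecular identifiers are not independent molecules. Scripts were tested on simulated counts.

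Replicate numbers 1 to 3 in the sample titles are shared by both states. The distance of a library from its group mean, over genes, correlated between the states for each number in T47D cells (r = 0.154, 0.325 and 0.303), so the numbers were taken to pair these libraries. Alternatives were DESeq2 1.42.0 (the tool the study's methods name), RLE factors, library totals, no filter, a mean count filter, a single fit of all libraries, the replicate block, stricter thresholds, other transcript lengths and each library left out.

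Gene coordinates and lengths came from GENCODE annotation on GRCh37 and promoter windows from RefSeq on GRCh38.p14, with no conversion between builds, and RefSeq entries matched PFKFB1, PFKFB3 and PFKFB4. The members and gene lists were chosen with earlier results of these data known. Genes were named by rule: the 4 members, all genes around fructose 2,6-bisphosphate, up to 3 of each other list with the largest changes among those called in 3 or more lines, neighbors within 100 kb called in 2 or more lines (up to 3 per member), and the 3 genes most like each member. Of the hypoxia reference genes, the rule names CA9, EGLN3 and BNIP3, which serve as a check of the labels. Some tissue markers that were checked are not reported here.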

Additional observations from a re-analysis of the deposited data

Results flagged for a closer look

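The hypoxia response of PFKFB4 differed between the 4 lines (interaction adjusted p = 4.58e-06, edgeR), with hypoxia higher in every line. Between single pairs, the log2 response differed by -1.73 for A549 minus HCT-116 (SE, 0.26), by -1.31 for A549 minus T47D (SE, 0.26), by 2.30 for HCT-116 minus PC3 (SE, 0.26) and by -1.88 for PC3 minus T47D (SE, 0.26). The PFKFB4 interaction passed under each alternative run, with adjusted p between 3.46e-18 and 9.03e-05, and with any library or replicate number left out (2.32e-06 to 0.00594). The pairs were not rerun under the alternatives. The PFKFB1 response differed by 3.30 for HCT-116 minus PC3 (SE, 1.08, adjusted p = 0.0411), from counts of 1 to 29 in a library, and the interaction of PFKFB1 over all 4 lines did not pass.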

How the results depend on the processing

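Of 603 alternatives to the results of the 4 PFKFB genes, 582 kept the side of the threshold (for shares, a value within 1 SD). Of the rest, 11 lost a call, 5 gained one and 5 moved a share. Among fold changes called as reported or under the alternative, 0 reversed direction. Direction was not compared for uncalled values, and the PFKFB2 log2 fold change in HCT-116 cells ranged from -0.10 to 0.14 with 1 library left out. PFKFB3 and PFKFB4 stayed called higher in each line under every alternative run, except PFKFB3 in T47D cells without normoxic replicate 1. With 1 library left out, the T47D log2 fold change of PFKFB3 ranged from 1.68 to 2.24. The PFKFB2 value in PC3 cells was -0.31 and not called at an adjusted p under 0.01 or a fold change over 1.5, was -0.27 in the fit of all 24 libraries, and ranged from -0.40 to -0.24 with 1 library left out. The PFKFB2 value in A549 cells ranged from 0.19 to 0.35. DESeq2 gave interaction adjusted p of 0.0400 for PFKFB1 and 0.0317 for PFKFB2, which passed. With libraries left out, the interaction adjusted p ranged from 0.0317 to 0.362 for PFKFB1, where it passed without hypoxic replicate 3 of A549 cells, and from 0.0212 to 0.730 for PFKFB3. The adjusted p across lines of PFKFB1 ranged from 0.00189 to 0.0706 in hypoxia (highest without replicate 2 of every group) and from 0.00203 to 0.102 in normoxia (highest without replicate 1). With the union of exons as length, the PFKFB4 share was 2.44% in hypoxic A549, 66.7% in hypoxic HCT-116, 32.0% in hypoxic PC3, 22.1% in normoxic PC3 and 6.70% in normoxic T47D cells. The causes were not tested, except that stricter thresholds lower the number of calls by construction.

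With the replicate number as a block, no call of a PFKFB gene changed. The T47D log2 fold change was then 1.91 for PFKFB3 and 3.43 for PFKFB4, and the PFKFB4 interaction adjusted p was 9.03e-05. The block moved calls over all genes from 2452 higher and 2476 lower to 2507 and 2495 in A549, from 3170 and 3676 to 3653 and 4031 in HCT-116, from 2237 and 2109 to 2349 and 2238 in PC3, and from 922 and 942 to 1281 and 1485 in T47D cells. Outside T47D, same-numbered libraries correlated with r from 0.0707 to 0.288, a range that holds the lowest T47D value (0.154). Whether the number pairs libraries in those lines cannot be told from these values. Every library correlated best with its own number in PC3 cells, but normoxic replicate 3 correlated best with hypoxic replicate 2 in A549 and HCT-116 cells.

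Counts over the enzymes that act on PFKFB proteins moved most: higher calls ranged from 1 to 7 in A549 (4 as reported), went from 8 to 3 at an adjusted p under 0.01 in HCT-116, and from 9 to 1 in PC3 cells (stricter thresholds, the fit of all 24 libraries, or without hypoxic replicate 1 or normoxic replicate 1). In T47D cells they went from 0 to 3 in the fit of all 24 libraries, and lower calls from 0 to 2 in A549 cells with library totals. The hypoxia reference genes called higher in PC3 cells went from 4 to 2 at an adjusted p under 0.01. For genes around fructose 2,6-bisphosphate, the lower calls were 0 to 2 in A549 and 0 to 1 in PC3 and T47D cells. Scaling to library totals put the median change over all genes at -0.13 (log2) in A549 and -0.12 in T47D cells, relative to which the called members kept their directions. Leaving out libraries for single named genes was added after seeing the data. PFKFB1, at 0 to 29 counts, is limited by depth.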
